A study of Mus musculus with 2 samples.

Results

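The integrin genes described here are 10 of the 30406 genes that both deposited count matrices list: *Itgav*, *Itgb1*, *Itgb3*, *Itgb5*, *Itgb6*, *Itgb8*, *Itga1*, *Itga5*, *Itga8* and *Itga9*. They were matched by Ensembl identifier and chosen as integrin subunits that bind the matrix or activate TGF-β. The rule uses no measured value, but the choice was made with earlier results of these data known. The identifiers are ENSMUSG00000027087 for *Itgav*, ENSMUSG00000025809 for *Itgb1*, ENSMUSG00000020689 for *Itgb3*, ENSMUSG00000022817 for *Itgb5*, ENSMUSG00000026971 for *Itgb6*, ENSMUSG00000025321 for *Itgb8*, ENSMUSG00000042284 for *Itga1*, ENSMUSG00000000555 for *Itga5*, ENSMUSG00000026768 for *Itga8* and ENSMUSG00000039115 for *Itga9*. They were read in 2 droplet single-cell RNA libraries of mouse liver cells, 1 from healthy mice and 1 from CCl4-injured mice. Mice of both groups carried Col1a2CreER:Rosa26tdTomato, an inducible Cre under the *Col1a2* promoter with a tdTomato reporter, so the healthy mice carried the reporter too. The CCl4 mice received repeated injections of CCl4 (carbon tetrachloride, a solvent that injures hepatocytes and drives fibrosis). By the study's methods the mice were of C57BL/6 background and were injected from young adult age over several weeks. How many animals went into a library is not given in the sources used here. Livers were perfused and taken apart by Pronase and Collagenase, and cells were purified on a Nycodenz gradient. By their labels both samples are whole liver cells, while the study's methods describe the removal of CD45+ blood cells for single-cell RNA-seq, so the share of each cell type also reflects the isolation. With 1 library per group there was no test between groups, and all intervals are 95% intervals of counting error only. UMIs (unique molecular identifiers, 1 per captured RNA molecule) were summed over cells and expressed as CPM, the counts per 1e6 UMIs of the population.

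Integrins are cell-surface receptors made of 1 α and 1 β subunit that join the extracellular matrix to the actin cytoskeleton. The β1 chain, encoded by *Itgb1*, pairs with many α chains, among them α1 (a collagen receptor), α5 (the fibronectin receptor), α8 (a receptor for the RGD motif, with nephronectin as a main ligand) and α9 (a receptor for tenascin-C and VCAM-1). The αv chain, encoded by *Itgav*, pairs with β1, β3, β5, β6 and β8, and these αv receptors bind the RGD sequence of the latency peptide of TGF-β. Through it they release active TGF-β: αvβ6 and αvβ8 are best known for this in epithelium, and αvβ1, αvβ3, αvβ5 and α8β1 have been studied in the stellate cells and myofibroblasts of the fibrotic liver.

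The promoters of 4 of these genes are given because their RNA marked different cells: *Itgb1* was broad, *Itgb6* was nearly confined to biliary cells, *Itga1* was shared by endothelial and mesenchymal cells, and *Itga8* split the mesenchymal cells into 2 sets of sub-clusters. Each run is the 250 bases before the start of the RefSeq gene (build GRCm38.p6), from 5′ to 3′ on the gene's strand. The coordinates are chr8:128685404-128685653 on the + strand for *Itgb1*, chr2:60722604-60722853 on the − strand for *Itgb6*, chr13:115101965-115102214 on the − strand for *Itga1* and chr2:12301945-12302194 on the − strand for *Itga8*. Capitals mark motif matches.
Itgb1: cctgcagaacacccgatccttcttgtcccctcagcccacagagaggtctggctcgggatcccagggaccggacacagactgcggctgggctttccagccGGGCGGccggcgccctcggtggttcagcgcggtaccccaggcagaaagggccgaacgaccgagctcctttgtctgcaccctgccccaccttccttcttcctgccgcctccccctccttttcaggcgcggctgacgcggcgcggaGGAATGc
Itgb6: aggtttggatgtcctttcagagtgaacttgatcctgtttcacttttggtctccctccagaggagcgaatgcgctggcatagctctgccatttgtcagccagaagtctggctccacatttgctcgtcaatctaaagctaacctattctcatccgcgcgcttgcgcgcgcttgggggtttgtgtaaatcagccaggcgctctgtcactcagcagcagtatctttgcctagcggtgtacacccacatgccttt
Itga1: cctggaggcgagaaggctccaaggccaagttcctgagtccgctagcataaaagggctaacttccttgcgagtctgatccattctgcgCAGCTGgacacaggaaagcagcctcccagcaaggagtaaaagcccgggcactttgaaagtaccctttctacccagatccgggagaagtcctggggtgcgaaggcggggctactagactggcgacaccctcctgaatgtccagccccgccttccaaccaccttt
Itga8: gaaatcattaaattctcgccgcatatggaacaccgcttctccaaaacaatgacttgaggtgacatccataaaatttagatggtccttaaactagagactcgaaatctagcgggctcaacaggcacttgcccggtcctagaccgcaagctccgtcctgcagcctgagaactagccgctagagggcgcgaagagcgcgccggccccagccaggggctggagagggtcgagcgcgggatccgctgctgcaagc
RefSeq promoters were found for 9 of the 10 genes, all but *Itgb3*, and *Itgb6* had 2. Both strands were searched for 6 motifs: the GC box (GGGCGG), the TATA box (TATAAA), an AP-1 site (TGANTCA), a TEAD site (GGAATG), an E box (CAGCTG) and the CArG box. The *Itgb1* run held a GC box and a TEAD site, found in 32.7% and 12.6% of 32851 mouse promoters of this length. The *Itga1* run held an E box, found in 13.0%. No match to any of the 6 motifs was found in the *Itga8* run or in the *Itgb6* run shown. The G and C content was 68.0% for *Itgb1*, 57.6% for *Itga1*, 56.4% for *Itga8* and 52.0% for *Itgb6*, against a median of 52.4% over all mouse promoters.

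The healthy library held 6297 cells and 51122846 UMIs and the CCl4 library 8460 cells and 97611831 UMIs. After cells with over 30% mitochondrial UMIs (418 healthy, 642 CCl4) and called doublets (277 and 487) were removed, 5602 healthy and 7314 CCl4 cells were kept, at medians of 6783.5 and 11876 UMIs per cell; 8 of the kept cell barcodes occurred in both libraries. No cell annotation was used here, so the cells were clustered without the integrin genes and named from marker genes. Of 22 clusters 18 got a name. All 15 hepatocyte, 20 endothelial and 14 mesothelial markers had UMIs in the class of that name in both libraries. In the healthy and CCl4 library, 15 and 13 of 15 cholangiocyte and 15 and 16 of 16 mesenchymal markers did. Markers of other classes had UMIs too, so this alone does not bear out a name. In healthy endothelial-like cells all 15 hepatocyte markers had UMIs, and summed to 1681 CPM, against 93330 CPM in hepatocyte-like cells. The named classes held, in the healthy and the CCl4 library, 327 and 332 hepatocyte-like, 1449 and 33 cholangiocyte-like, 3558 and 642 endothelial-like, 9 and 3013 mesenchymal-like, 232 and 961 mesothelial-like and 14 and 498 immune-like cells, with 13 and 1835 cells unnamed. Levels are compared for classes with at least 50 cells in a library, so that the mesenchymal-like class is described in the CCl4 library and the cholangiocyte-like class in the healthy one. RNA typical of other classes was found in both libraries: healthy endothelial-like cells showed 638 CPM of *Alb*, the hepatocyte gene for albumin, and CCl4 endothelial-like cells 151 CPM of *Col1a1*, the collagen gene of mesenchymal cells. From genes of absent classes, the background share of UMIs was put at 15.8% in the healthy and 5.81% in the CCl4 library. Free RNA, doublets and expression by the cells themselves were not told apart, and values that bear on this stand beside the results.

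The order of cell classes differed among the integrin genes (the plot of the 10 genes by class). In the healthy library *Itgb5* and *Itgb6* shared an order, as did *Itgb1* and *Itga1*. Below the cholangiocyte-like cells the *Itgb6* order rested on 1 to 4 UMIs per class, too few to rank them. In the healthy library 5 genes were highest in endothelial-like cells (*Itgb1*, *Itga1*, *Itga5*, *Itga8*, *Itga9*), 3 in cholangiocyte-like cells (*Itgb5*, *Itgb6*, *Itgb8*) and 2 in mesothelial-like cells (*Itgav*, *Itgb3*). In the CCl4 library 4 were highest in mesenchymal-like cells (*Itgb1*, *Itgb5*, *Itga1*, *Itga8*), 3 in endothelial-like cells (*Itgb3*, *Itga5*, *Itga9*) and 2 in mesothelial-like cells (*Itgav*, *Itgb8*), while *Itgb6* had no UMI in any class of 50 cells or more. Against all other cells of their library, and counting genes at least 2-fold higher with an interval off 1, 6 of the 10 genes were higher in healthy endothelial-like cells (background over all genes: 18%), 3 in healthy cholangiocyte-like cells (background 20.4%), 5 in CCl4 mesenchymal-like cells (background 9.8%) and 0 in CCl4 mesothelial-like cells (background 10.4%). The classes were built from the same cells, so these counts describe the classes and test nothing.

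**Figure D1:**
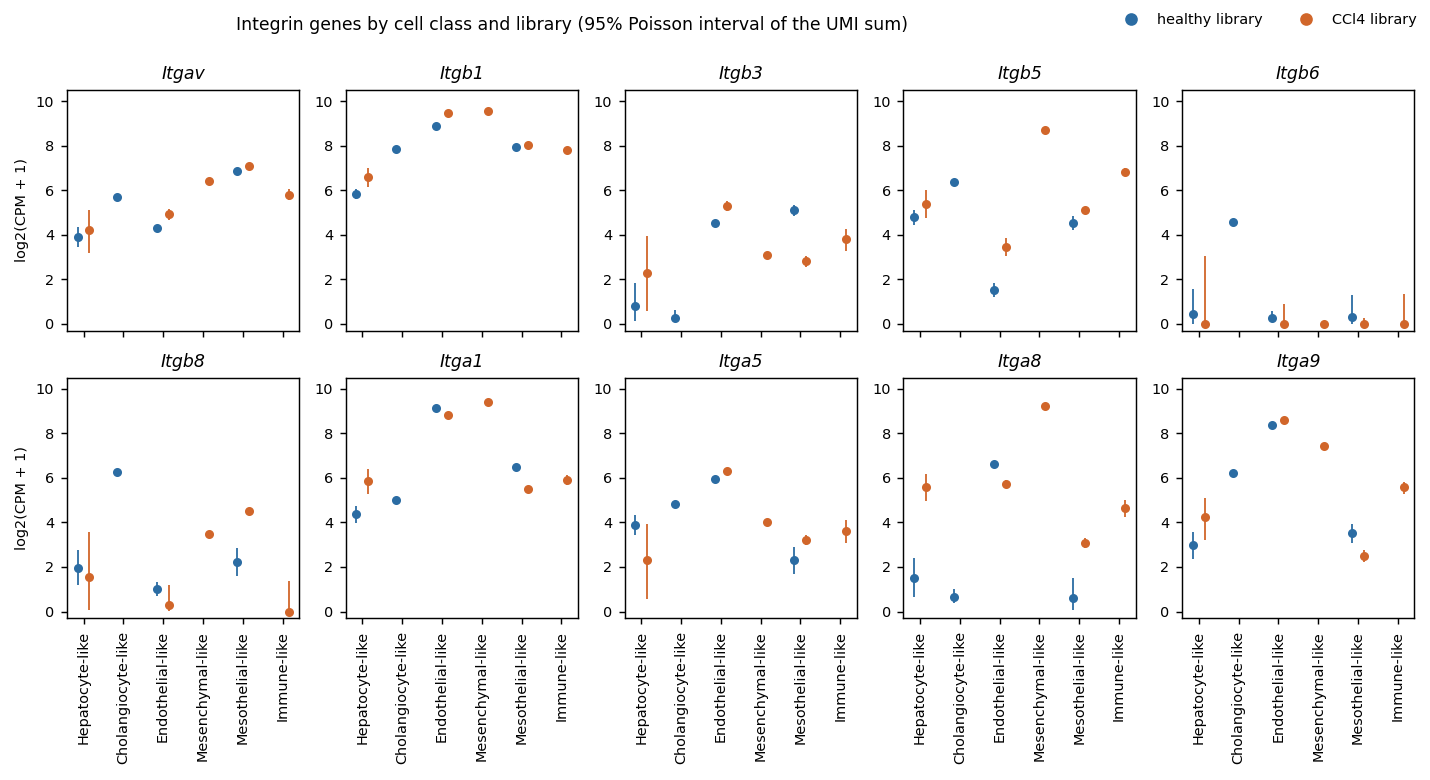
Level of each integrin gene, as log2(CPM + 1) on the y axis, in each cell class with at least 50 cells (x axis), in the healthy library (blue) and the CCl4 library (orange); points are 1 library each and bars are 95% Poisson intervals of the UMI sum. *Itgb6* stands at 23.0 CPM in healthy cholangiocyte-like cells and at or near 0 elsewhere, *Itga8* is highest in CCl4 mesenchymal-like cells at 602 CPM, and *Itgb3* lies at 33.6 CPM in healthy and 6.02 CPM in CCl4 mesothelial-like cells.

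*Itgav*, the shared α chain of the TGF-β-activating receptors, had its highest CPM in mesothelial-like cells in both libraries, but was not confined to them. They held 23.9% of its UMIs in the healthy and 27.3% in the CCl4 library. In the CCl4 library mesenchymal-like cells held more of them (3757 against 2277), and the mesothelial level was 1.60-fold that of all other cells. In the healthy library *Itgav* had 447 UMIs in 232 mesothelial-like cells, 116 CPM (95% interval 106 to 128), followed by 51.3 CPM in cholangiocyte-like, 18.7 in endothelial-like and 14.1 in hepatocyte-like cells. The intervals of the last 2 overlapped (16.9 to 20.7 and 10.0 to 19.3), and all other neighbours in this order were apart. In the CCl4 library the order was mesothelial-like (137 CPM, 131 to 143), mesenchymal-like (85.3), immune-like (55.0), endothelial-like (29.6) and hepatocyte-like (17.8, from 9 UMIs). Endothelial-like and hepatocyte-like cells were the lowest classes for αv in both libraries, and mesenchymal-like cells lay between the mesothelial-like and the immune-like ones.

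*Itgb3* encodes the β3 chain of αvβ3, which binds vitronectin and is also the platelet fibrinogen receptor when joined to αIIb. In the healthy library it was found in mesothelial-like cells (129 UMIs, 33.6 CPM) and endothelial-like cells (447 UMIs, 22.2 CPM), and was close to 0 in hepatocyte-like (2 UMIs) and cholangiocyte-like cells (4 UMIs). With CCl4 it was 38.5 CPM in endothelial-like, 13.0 in immune-like, 7.47 in mesenchymal-like and 6.02 in mesothelial-like cells, with overlapping intervals between the last 2 (6.68 to 8.32 and 4.90 to 7.32). Mesothelial-like cells were thus its highest class in the healthy library and not in the CCl4 library.

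*Itgb5*, the β chain of the vitronectin receptor αvβ5, was the biliary gene of the healthy library and the mesenchymal gene of the CCl4 library. Healthy cholangiocyte-like cells had 1575 UMIs of it (83.0 CPM, 79.0 to 87.3), which was 84.5% of its UMIs in that library, followed by 26.8 CPM in hepatocyte-like, 22.1 in mesothelial-like and 1.83 in endothelial-like cells. Mesenchymal-like cells of the CCl4 library had 18198 UMIs (413 CPM, 407 to 419), or 85.6% of its UMIs there. Next came the immune-like cells at 111 CPM and the hepatocyte-like cells at 41.4 CPM, and the endothelial-like cells were lowest at 10.0 CPM. The 9 healthy mesenchymal-like cells had 31 UMIs, 406 CPM (276 to 576), an interval that includes the CCl4 value.

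*Itgb6* and *Itgb8* encode the β chains of αvβ6 and αvβ8, the receptors best known for freeing TGF-β in epithelia. Healthy cholangiocyte-like cells had 437 of the 443 *Itgb6* UMIs of their library (98.6%), at 23.0 CPM (20.9 to 25.3). The other classes had 4 UMIs (endothelial-like), 1 (hepatocyte-like) and 1 (mesothelial-like). In the CCl4 library there were 4 *Itgb6* UMIs in all, and they lay in the 33 cholangiocyte-like cells (16.2 CPM, 4.41 to 41.5). None was found in 3013 mesenchymal-like cells, where 3 UMIs would have given 0.0681 CPM. The CCl4 library had few biliary cells, and the interval of the *Itgb6* level in them includes the healthy value.

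*Itgb8* was nearly as restricted in the healthy library, with 1446 UMIs (76.2 CPM, 72.4 to 80.3) and 97.0% of its UMIs in cholangiocyte-like cells. Mesothelial-like cells followed at 3.65 CPM and hepatocyte-like cells at 2.89 CPM, with overlapping intervals. In the CCl4 library the 33 cholangiocyte-like cells had 21 UMIs, 85.0 CPM (52.6 to 130). Among the larger classes *Itgb8* was highest in mesothelial-like cells (357 UMIs, 21.5 CPM), then in mesenchymal-like cells (440 UMIs, 9.99 CPM), and it had no UMI in 498 immune-like cells. An unnamed cluster of 692 CCl4 cells led by *Serpinb2* and *Cxcl5* had 25.3 CPM of *Itgb8* and 102 CPM of *Itgav*. Among the healthy biliary cells, the main cluster of 1236 cells had 78.5 CPM of *Itgb8* and 23.4 of *Itgb6*. A second cluster of 213 cells, whose leading genes (*Sox2*, *Tubb3*, *Pax6*) are not biliary, had 43.2 and 18.3 CPM, so the *Itgb8* level there was lower and the *Itgb6* intervals overlapped (21.2 to 25.7 and 11.5 to 27.7).

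*Itgb1*, the common β chain, was found in every class. In the healthy library endothelial-like cells had 478 CPM (469 to 488), mesothelial-like cells 249, cholangiocyte-like cells 233 and hepatocyte-like cells 56.4, and the intervals of the middle 2 overlapped (233 to 265 and 226 to 240). After CCl4, mesenchymal-like cells had 750 CPM (742 to 758) and endothelial-like cells 701 CPM (676 to 726). Mesothelial-like cells followed at 264, immune-like at 224 and hepatocyte-like at 94.7 CPM. Hepatocyte-like cells were thus the lowest class for the common β chain in both libraries.

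*Itga1*, the α chain of the collagen receptor α1β1, was shared by endothelial-like and mesenchymal-like cells. Healthy endothelial-like cells had 11384 UMIs (564 CPM, 554 to 575), 91.4% of the UMIs of the library, and no other healthy class of at least 50 cells passed 88.0 CPM. In the CCl4 library mesenchymal-like cells had 29734 UMIs (675 CPM, 667 to 683), and endothelial-like cells 447 CPM. The 9 healthy mesenchymal-like cells had 61 UMIs, 798 CPM (611 to 1025), so a high *Itga1* level was seen in mesenchymal-like cells of both libraries.

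*Itga8*, the α chain of α8β1, was a mesenchymal gene in the CCl4 library. Mesenchymal-like cells had 26496 UMIs (602 CPM, 594 to 609), 90.8% of the UMIs, and 9.76-fold the level of all other cells of that library. Endothelial-like cells had 51.9, hepatocyte-like 47.3, immune-like 23.9 and mesothelial-like cells 7.40 CPM. In the healthy library, among classes of at least 50 cells, it was highest in endothelial-like cells. These had 1978 UMIs (98.1 CPM, 93.8 to 102), 97.0% of the UMIs, against 5 UMIs in hepatocyte-like, 11 in cholangiocyte-like and 2 in mesothelial-like cells. The 9 healthy mesenchymal-like cells held 19 *Itga8* UMIs among 76419 UMIs, a higher level than in the endothelial-like cells. The share of 97.0% therefore also reflects the 3558 endothelial-like against 9 mesenchymal-like cells. The healthy endothelial-like cells had 0.397 CPM of *Col1a1*, and 98.6% of them had no UMI of *Col1a1*, *Col1a2* or *Col3a1*. *Itga8* was thus found in healthy endothelial-like cells in which mesenchymal collagen was close to 0.

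*Itga5*, the α chain of the fibronectin receptor, and *Itga9*, the receptor for tenascin-C, had their highest CPM in endothelial-like cells in both libraries. *Itga5* was 61.2 CPM in healthy and 77.2 CPM in CCl4 endothelial-like cells. The next class was at 27.4 CPM (cholangiocyte-like) and 15.3 CPM (mesenchymal-like). *Itga9* was 332 CPM in healthy and 387 CPM in CCl4 endothelial-like cells, followed by 73.1 CPM in healthy cholangiocyte-like and 170 CPM in CCl4 mesenchymal-like cells. Mesothelial-like cells were low for both, at 3.91 and 8.37 CPM of *Itga5* and 10.4 and 4.57 CPM of *Itga9* in the healthy and CCl4 library.

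Cell classes differ in depth, so shares of cells with a UMI were also taken after thinning each cell to 2000 UMIs. *Itgb8* was seen in 52.9% of healthy cholangiocyte-like cells before thinning and in 14.7% after it, against 0.186% of thinned healthy endothelial-like cells. *Itgb6* went from 22.8% to 4.38%, against 0.0422% in endothelial-like cells. *Itga8* was in 96.1% of CCl4 mesenchymal-like cells before and 61.3% after thinning, against 1.27% of thinned mesothelial-like cells. The median depths were 11237 UMIs in healthy cholangiocyte-like, 5890 in healthy endothelial-like, 14140 in CCl4 mesenchymal-like and 16936 in CCl4 mesothelial-like cells. For these 3 genes the class with the highest CPM also had the highest thinned share.

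Both chains of a receptor are needed in 1 cell. In CCl4 mesenchymal-like cells, 95.6% of cells had UMIs of both *Itga8* and *Itgb1*, 95.4% of both *Itga1* and *Itgb1*, and 63.7% of both *Itgav* and *Itgb5*; after thinning these shares were 44.6%, 49.4% and 8.58%. In healthy cholangiocyte-like cells 24.4% had both *Itgav* and *Itgb8* and 13.4% both *Itgav* and *Itgb6* (1.28% and 0.510% thinned). In mesothelial-like cells *Itgav* with *Itgb3* was found in 28.4% of healthy and 6.97% of CCl4 cells, and *Itgav* with *Itgb8* in 5.60% and 18.7%. RNA of both chains does not show that the receptor was on the surface.

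The question of what differed with CCl4 could be asked in the endothelial-like and mesothelial-like cells, 2 classes with at least 50 cells in both libraries. The 20 endothelial markers summed to 24245 CPM in healthy and 15760 CPM in CCl4 endothelial-like cells, and the 14 mesothelial markers to 19933 and 6778 CPM in the mesothelial-like cells. Different clusters held each class in the 2 libraries: the CCl4 endothelial-like cells lay in 1 cluster led by *Esm1* and *Nts* (635 of 642 cells), the healthy ones mainly in 5 others, and the healthy and CCl4 mesothelial-like cells in 1 cluster each. Cell state, cell makeup, library and CCl4 therefore cannot be told apart in these ratios.

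In endothelial-like cells most of the integrin genes lay within 2-fold of the healthy level. Only *Itgb5* was at least 2-fold higher (1 of 9 genes with enough UMIs, background 7.11% of 13358 genes), and 0 of 9 were at least 2-fold lower (background 15.7%). The median log2 ratio of the 9 genes was 0.33, against -0.28 over all genes. *Itgb5* went from 37 UMIs (1.83 CPM) to 44 UMIs (10.0 CPM), a ratio of 5.46 (3.45 to 8.70). All 16 mesenchymal markers had UMIs in both groups. Their sum was 1625 CPM in healthy and 5015 CPM in CCl4 endothelial-like cells. Little of the healthy sum came from *Col1a1* (0.397 CPM), *Lrat* (3.72 CPM) or *Rgs5* (5.95 CPM). With CCl4 these stood at 151, 5.24 and 15.3 CPM. Mesenchymal RNA scaled to the *Col1a1* level of the CCl4 endothelial-like cells would carry 14.4 CPM of *Itgb5*, more than the 10.0 CPM measured. Scaled to *Lrat*, a stellate cell gene at 5.24 CPM in these cells, it would carry 7.43 CPM, less than measured. The part of mesenchymal RNA in the *Itgb5* ratio was not tested. In cells with no UMI of *Col1a1*, *Col1a2* or *Col3a1* (3508 healthy, 99 CCl4) the ratio was 4.43 (1.36 to 11.3).

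*Itgb1*, *Itgb3* and *Itgav* were higher in CCl4 endothelial-like cells by less than 2-fold, with intervals above 1. *Itgb1* went from 478 to 701 CPM (ratio 1.46, 1.41 to 1.53), *Itgb3* from 22.2 to 38.5 CPM (1.74, 1.45 to 2.08) and *Itgav* from 18.7 to 29.6 CPM (1.58, 1.29 to 1.94). Mesenchymal RNA scaled to *Col1a1* gives 26.1 CPM of *Itgb1*, 0.260 of *Itgb3* and 2.97 of *Itgav*, less than each difference. *Itga5* (1.26) and *Itga9* (1.17) were closer to 1. *Itga8* was lower, from 98.1 to 51.9 CPM (0.529, 0.460 to 0.608), and so was *Itga1*, from 564 to 447 CPM (0.792, 0.755 to 0.831). Mesenchymal RNA would carry 20.9 CPM of *Itga8* and 23.5 of *Itga1* scaled to *Col1a1*, and 10.8 and 12.1 CPM scaled to *Lrat*. Its part in these 2 ratios was not tested. *Itgb8* had 20 and 1 UMIs (0.230, 0.00554 to 1.44), and *Itgb6*, with 4 and 0, was not compared. Over 16 alternative settings *Itgb1* (1.41 to 1.83), *Itgb3* (1.31 to 2.09) and *Itgav* (1.57 to 4.32) stayed above 1, while the direction turned in some for *Itga8* (0.322 to 2.70), *Itga1* (0.729 to 1.68), *Itga5* (0.637 to 1.52) and *Itgb8* (0 to 7.95 over 15). The CCl4 endothelial-like class held 99 to 739 cells in them, and the part of this in the ratios was not tested.

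**Figure D2:**
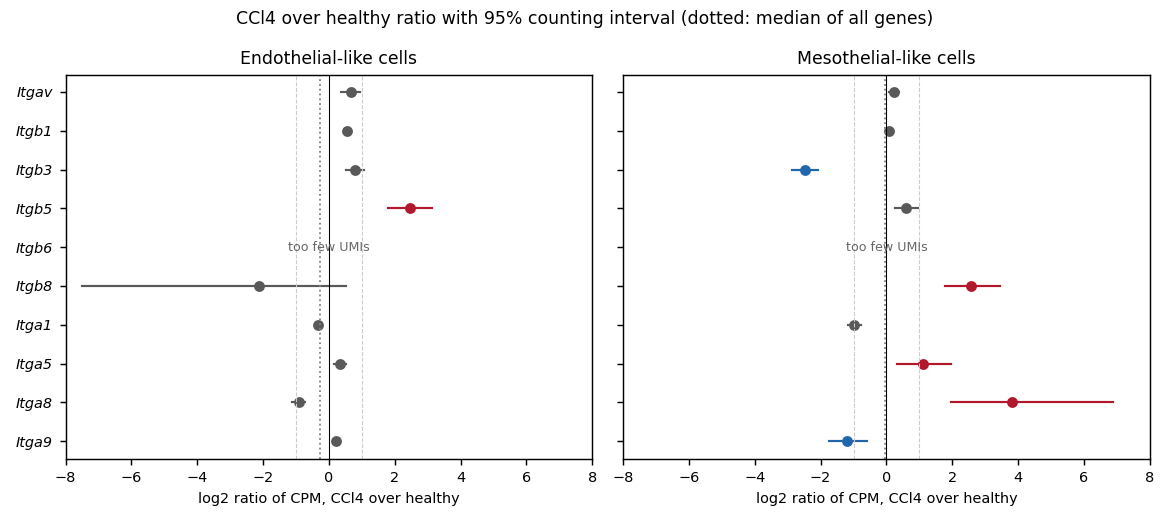
Ratio of CPM between the CCl4 and the healthy library on a log2 x axis for each integrin gene (rows), in endothelial-like cells (left) and mesothelial-like cells (right); dots are ratios, lines 95% counting intervals, dashed lines 2-fold, the dotted line the median of all genes. Red and blue mark genes at least 2-fold higher or lower with an interval off 1: *Itgb5* at 5.46 on the left, and *Itgb8*, *Itga5* and *Itga8* higher and *Itgb3* and *Itga9* lower on the right.

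In mesothelial-like cells 3 of 9 genes were at least 2-fold higher (background 11.3% of 13497 genes) and 2 at least 2-fold lower (background 12.1%). The median log2 ratio was 0.24, against -0.04 over all genes. The β chains that partner αv went opposite ways. *Itgb3* went from 129 UMIs in 232 cells (33.6 CPM) to 100 UMIs in 961 cells (6.02 CPM), a ratio of 0.179 (0.137 to 0.235). *Itgb8* went from 14 UMIs (3.65 CPM) to 357 UMIs (21.5 CPM), a ratio of 5.89 (3.47 to 10.9). The αv chain itself differed little, from 116 to 137 CPM (1.18, 1.06 to 1.31), as did *Itgb1* (1.06, 0.991 to 1.14). Thinned to 2000 UMIs, 5.76% of healthy and 1.10% of CCl4 cells had an *Itgb3* UMI, and 0.796% and 3.67% an *Itgb8* UMI. Mesenchymal RNA scaled to the *Col1a1* of the CCl4 cells would carry 0.979 CPM of *Itgb8*. Over 13 alternative settings the *Itgb3* ratio was 0.156 to 0.286, and over 12 the *Itgb8* ratio was 4.45 to 6.51.

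The other mesothelial calls rested on fewer UMIs. *Itga5* went from 15 to 139 UMIs (3.91 to 8.37 CPM, ratio 2.14, 1.25 to 3.93) and *Itga9* from 40 to 76 UMIs (10.4 to 4.57 CPM, 0.439, 0.296 to 0.661). The *Itga9* direction turned in 4 of the alternative settings, among them 30 principal components (1.01). *Itga8* had 2 UMIs in the healthy and 123 in the CCl4 cells (7.40 CPM), with a ratio of 14.2 and an interval from 3.85 to 119. The sum of the 16 mesenchymal markers was similar in both groups (10051 and 8927 CPM), but single markers differed. Higher with CCl4 were *Lrat* (0.260 CPM, from 1 UMI, to 5.30), *Rgs5* (0.781 to 6.62), *Pdgfrb* (2.60 to 9.15) and *Col1a1* (133 to 426). Lower were *Col3a1* (912 to 759 CPM) and *Tagln* (67.4 to 35.3 CPM). Mesothelial cells are known to make some collagen of their own. For *Lrat*, a stellate cell gene, CCl4 mesothelial-like cells had 5.30 CPM, and mesenchymal RNA scaled to it would carry 10.9 CPM of *Itga8*, more than the level measured. The part of mesenchymal RNA in the *Itga8* ratio was not tested. *Itga1* was lower (88.0 to 44.8 CPM, 0.510, 0.447 to 0.581) and *Itgb5* higher (22.1 to 33.6 CPM, 1.52, 1.21 to 1.93). Over 13 alternative settings *Itga1* was 0.391 to 1.01, with 1.01 where no doublets were removed, and *Itgb5* 1.13 to 2.44, so both passed 2-fold in some.

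*Itgb3*, *Itga8* and *Itga9* had ratios on opposite sides of 1 in the 2 classes with both intervals off 1. *Itgb8* was on opposite sides too (0.230 and 5.89), with an endothelial interval that includes 1. All 4 were compared as values only, as 1 library per group gives no test of the difference.

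Hepatocyte-like cells had a median of 2891 UMIs in the healthy and 898.5 in the CCl4 library, and the CCl4 cells carried 434 CPM of *Col1a1* and UMIs of all 16 mesenchymal markers (2844 CPM in sum, against 38.7 CPM and 9 of 16 in the healthy cells), so levels are set side by side without a ratio. *Itgb1* was 56.4 and 94.7 CPM, *Itga1* 19.5 and 57.2 CPM, *Itga8* 1.81 (5 UMIs) and 47.3 CPM (24 UMIs), and *Itgb5* 26.8 and 41.4 CPM in the healthy and CCl4 library. Mesenchymal RNA at that *Col1a1* level would carry 60.1 CPM of *Itga8* and 67.4 of *Itga1*, above both CCl4 values. It would carry 74.8 CPM of *Itgb1*, below the CCl4 value but inside its interval (69.8 to 126). For *Itgb5* it would carry 41.3 CPM, close to the CCl4 value. Scaled to *Lrat*, it would carry 96.4 CPM of *Itgb1* and 53.1 CPM of *Itgb5*, both above the CCl4 values. The part of mesenchymal RNA in these levels was not tested.

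Among the healthy endothelial-like clusters, *Itga8* separated sinusoidal from large-vessel cells. It was highest in the cluster led by the scavenger receptor genes *Stab2* and *Fcgr2b* (141 CPM, 129 to 153) and in the *Wnt2* and *Clec1b* cluster (113 CPM, 107 to 120). In the *Sox17* and *Gja4* cluster it was 45.4 CPM (37.1 to 55.1), and in the *Vwf* and *Ly6c1* cluster of 270 large-vessel cells it had 8 UMIs, 3.74 CPM (1.62 to 7.37). *Itga9* followed the same order at its ends (413 CPM in the *Stab2* cluster, 157 in the large-vessel cluster), as did *Itgb3* (27.2 and 11.2) and *Itga1* (689 and 430). *Itga5* (65.5 and 63.1 CPM) and *Itgb1* (513 and 537 CPM) were close to even between these 2 clusters. The CCl4 cluster had 52.2 CPM of *Itga8*, between the *Sox17* and low-UMI healthy clusters. Without the large-vessel cluster the CCl4 to healthy ratio of *Itga8* was 0.476, which passes the 2-fold limit, so this call rests on which cells are counted.

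**Figure D3:**
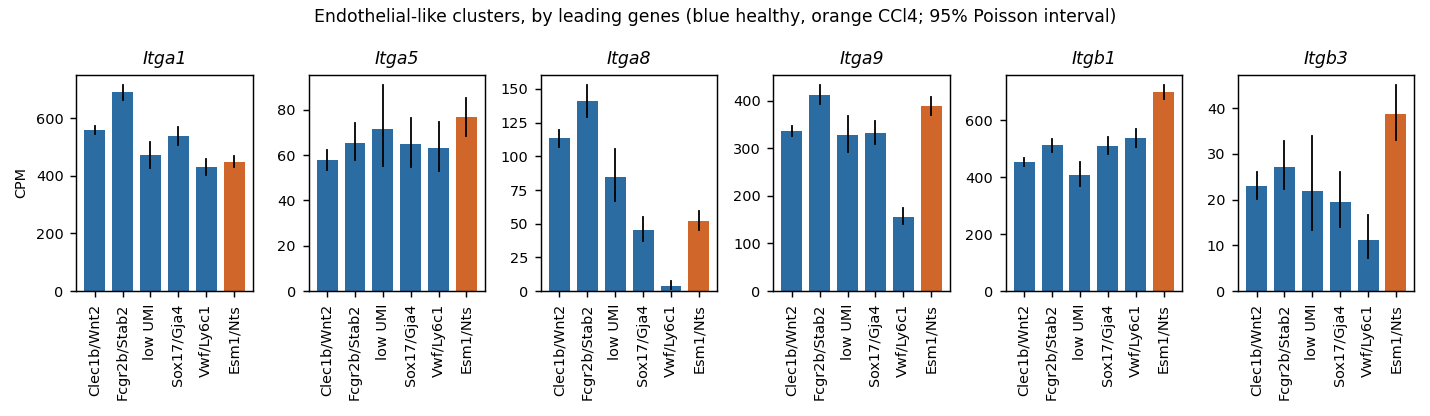
Level in CPM (y axis, from 0) of 6 integrin genes in the 5 healthy endothelial-like clusters (blue) and the CCl4 one (orange), named on the x axis by leading genes; lines are 95% Poisson intervals. *Itga8* spans 3.74 CPM in the *Vwf* and *Ly6c1* cluster to 141 CPM in the *Fcgr2b* and *Stab2* cluster, while *Itga5* differs little.

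Within the CCl4 mesenchymal-like cells, *Itga8* and *Itga1* ran opposite. The class held clusters led by *Thbs4*, *Casq2* and *Dpep1* (1421 cells), by *Cxcl14* and *Postn* (901 cells) and by *Rgs5*, *Colec10* and *Angptl6* (691 cells). *Itga8* was 922, 368 and 264 CPM in these, and *Itga1* was 378, 892 and 988 CPM, with no overlap of intervals for either gene. Split further into 12 sub-clusters of 59 to 366 cells, *Itga8* ranged 4.63-fold, from 226 to 1047 CPM. In 4 sub-clusters it was 847 to 1047 CPM and in the other 8 it was 226 to 412 CPM, with nothing between. *Itga1* ranged 3.80-fold, from 284 to 1080 CPM, and its lowest value was in the sub-cluster with the highest *Itga8*. Over the 12 sub-clusters, which share 1 library, the correlation of their log2 CPM was -0.91.

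*Itgb3* in the mesenchymal-like cells marked the *Rgs5* end. It was 51.0 CPM (162 UMIs, 43.5 to 59.5) in the sub-cluster with the lowest *Itga8* (226 CPM) and the highest *Rgs5*, and at most 0.932 CPM in the 4 sub-clusters with high *Itga8*. Over the 12 sub-clusters *Itga8* ran against *Rgs5* (r = -0.97) and *Lrat* (r = -0.90), 2 genes of stellate cells and pericytes. It was not related to *Acta2*, the smooth muscle actin of myofibroblasts (r = -0.20), or to *Col1a1* (r = 0.25). *Itgb1* (554 to 1193 CPM) and *Itga9* (116 to 299 CPM) were highest in the same *Rgs5* sub-cluster. *Itgav* was the most even of the expressed members, at 67.1 to 101 CPM, and *Itgb5* ranged from 262 to 514 CPM and had r = 0.24 with *Itga8*.

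**Figure D4:**
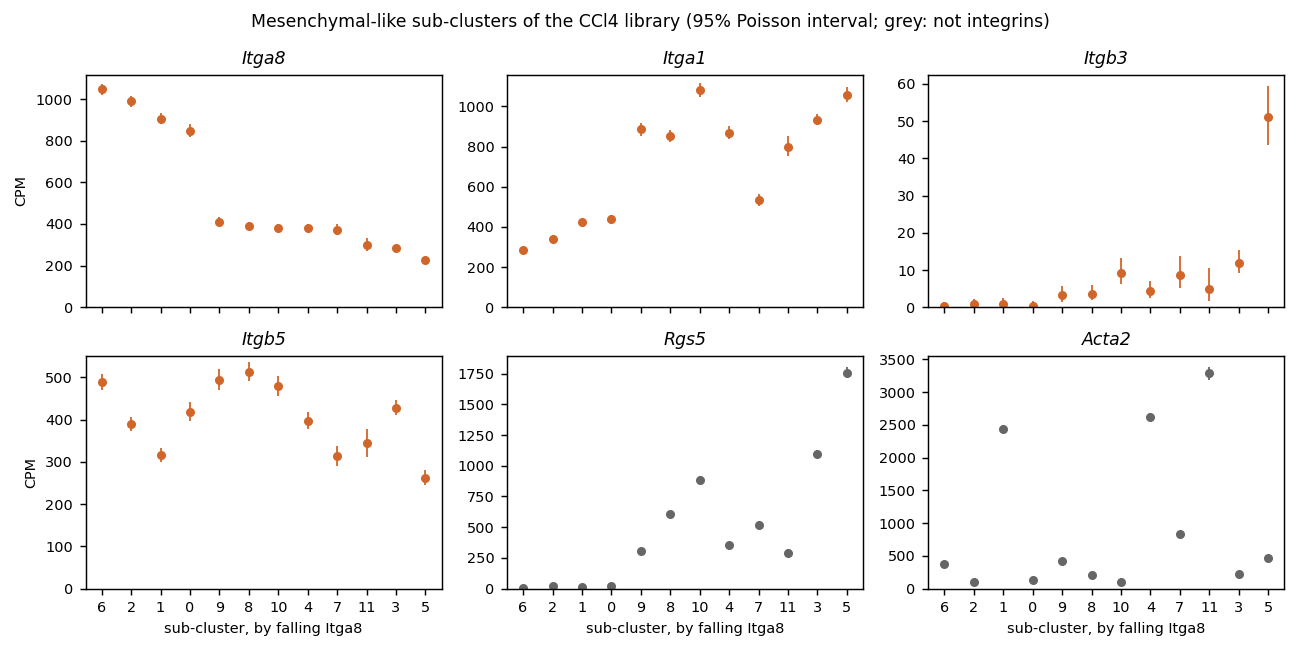
Level in CPM (y axes, from 0) of 4 integrin genes (orange) and of *Rgs5* and *Acta2* (grey) in the 12 mesenchymal-like sub-clusters of the CCl4 library, ordered on the x axis by falling *Itga8*; bars are 95% Poisson intervals. *Itga8* steps down after 4 sub-clusters from 847 to 412 CPM, *Itga1* and *Rgs5* are higher to the right, and *Itgb3* peaks at 51.0 CPM in the last sub-cluster.

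The immune-like cells of the CCl4 library held 177 macrophage and monocyte-like, 105 T and NK-like, 71 B and plasma-like, 69 neutrophil-like and 61 dendritic-like cells. *Itgb5* was a macrophage gene among them: 243 UMIs, 240 CPM (210 to 272), against 39.3 CPM in B and plasma-like, 15.3 in T and NK-like, 12.3 in neutrophil-like and 2.64 in dendritic-like cells. *Itga9* (93.7 CPM) and *Itgav* (92.7 CPM) were also highest in macrophage and monocyte-like cells. At their 140 CPM of *Col1a1*, mesenchymal RNA would carry 13.3 CPM of *Itgb5*, 5.49 of *Itga9* and 2.75 of *Itgav*. *Itga1* was highest in T and NK-like cells, at 186 CPM (148 to 230), with UMIs of *Itga1* in 48.6% and of *Itgb1* in 47.6% of the cells (30.4% and 33.4% thinned). At their 468 CPM of *Col1a1*, mesenchymal RNA would carry 72.6 CPM of *Itga1*, and 65.8 CPM scaled to *Lrat*. Of the 105 T and NK-like cells, 24 lay in a sub-cluster whose first leading genes were *Mpo*, *Elane* and *Ctsg*. *Itga8* was between 15.8 and 56.7 CPM in these 5 types, and mesenchymal RNA at the *Col1a1* level of each would carry as much or more in the T and NK-like (26.2 measured, 64.7 carried), macrophage and monocyte-like (17.7 and 19.4) and dendritic-like cells (15.8 and 16.4). In B and plasma-like (56.7 and 41.1) and neutrophil-like cells (24.6 and 21.0) the measured intervals include the carried level. Scaled to *Lrat*, the level carried there was 27.0 and 8.45 CPM, against measured intervals of 30.2 to 97.0 and 9.01 to 53.5. In dendritic-like cells it was 10.9 CPM, against 15.8 measured. *Lrat* had at most 3 UMIs in each of these types, so its counting error is wide and no order is read from it. The *Lrat*-scaled level was above the measured one in T and NK-like (58.6) and macrophage and monocyte-like cells (48.8). The part of mesenchymal RNA in these values was not tested. *Itgb6* and *Itgb8* had no UMI in any immune type.

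**Figure D5:**
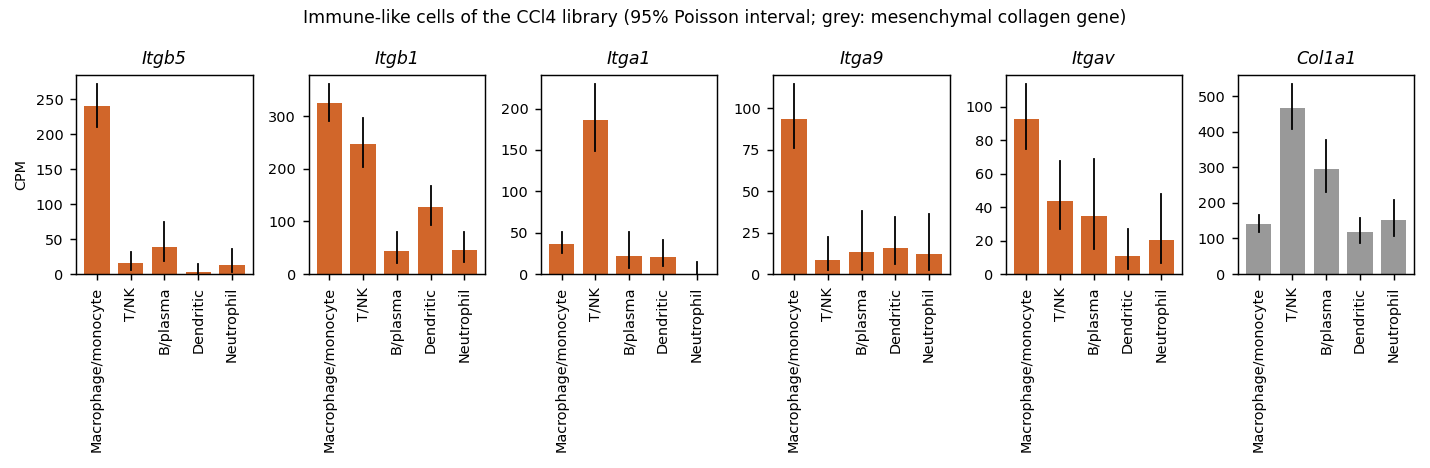
Level in CPM (y axes, from 0) of 5 integrin genes (orange) and of *Col1a1* (grey) in 5 immune types of the CCl4 library (x axis); lines are 95% Poisson intervals. *Itgb5* stands at 240 CPM in macrophage and monocyte-like cells and *Itga1* at 186 CPM in T and NK-like cells.

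The partners of these receptors were read as lists, against shares of all genes of 7.11% higher and 15.7% lower in endothelial-like and 11.3% and 12.1% in mesothelial-like cells. Of 16 other integrin subunits, 9 had enough UMIs in endothelial-like cells, with 3 at least 2-fold higher (*Itga2*, *Itga2b* and *Itga6*) and 2 lower (*Itgb7* and *Itgb4*). *Itga6*, the α chain of laminin receptors, went from 66.0 to 176 CPM (2.67, 2.44 to 2.92). Of 7 with enough UMIs in mesothelial-like cells 2 were higher, *Itga10* (19.3, from 2 healthy UMIs) and *Itga7* (2.18), and none lower; the list's median log2 ratio was 0.43 in endothelial-like and 0.09 in mesothelial-like cells, or -0.26 in the latter with a zero group set to 3 UMIs. Of the 20 adaptors and activators that tie integrins to actin, 1 was higher (*Fermt3*, 2.50) and 1 lower (*Lims2*, 0.446) in endothelial-like cells, with a median of 0.13. In mesothelial-like cells 3 of 19 were higher, led by *Actn1* (α-actinin, 5.10) and *Vcl* (vinculin, 2.83), and 6 were lower, led by *Lims2* (0.196) and *Tns1* (158 to 39.5 CPM), with a median of -0.25.

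The matrix ligands had the largest median ratio of the lists in both classes. In endothelial-like cells 10 of 16 were higher and 3 lower (7.11% and 15.7% over all genes; median log2 ratio 1.26). *Col1a1* (381-fold) and *Col3a1* (80.6-fold), the collagens of mesenchymal cells, were among the 10, and *Fn1*, fibronectin, went from 8.53 to 58.1 CPM (6.81). *Postn*, *Lamb1* and *Tnc*, also among the 10, had 9.57, 7.97 and 2.96 CPM in CCl4 endothelial-like and 391, 217 and 71.6 CPM in mesenchymal-like cells, and the part of mesenchymal RNA in them was not tested. In mesothelial-like cells 9 of 16 were higher and 5 lower (11.3% and 12.1% over all genes; median 1.68), with *Thbs1*, thrombospondin, from 5.47 to 403 CPM (73.7) and *Fn1* from 5.21 to 202 CPM (38.8). *Vtn*, vitronectin, and *Spp1*, osteopontin, were lower in both classes (0.0418 and 0.00972 in endothelial-like, 0.0344 and 0.119 in mesothelial-like cells). *Vtn* is made by hepatocytes and *Spp1* by biliary cells: healthy hepatocyte-like cells had 1557 CPM of *Vtn* and healthy cholangiocyte-like cells 25141 CPM of *Spp1*. Summed hepatocyte markers went from 1681 to 102 CPM in endothelial-like and from 606 to 48.2 CPM in mesothelial-like cells. Summed cholangiocyte markers, a list that holds *Spp1* itself, went from 437 to 63.3 CPM and from 1346.5 to 868 CPM. The part of hepatocyte and biliary RNA in the *Vtn* and *Spp1* ratios was not tested.

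For the substrate of the αv receptors, 9 genes of latent TGF-β, its anchors and the LTBP family were read, with the same shares over all genes as above (7.11% and 15.7%, 11.3% and 12.1%). Not every LTBP gene was taken to be an anchor of latent TGF-β. In endothelial-like cells 3 were higher and 1 lower, *Ltbp4* (760 to 255 CPM, 0.335), and *Tgfb1*, the TGF-β1 gene, went from 256 to 364 CPM (1.42). *Ltbp1*, which anchors latent TGF-β to the matrix, went from 1.88 to 17.1 CPM (9.07). The 3 higher genes were *Ltbp2*, *Ltbp1* and *Ltbp3*. Each had a higher CPM in CCl4 mesenchymal-like than in CCl4 endothelial-like cells, and the part of mesenchymal RNA in them was not tested. In mesothelial-like cells 1 was higher, *Ltbp2*, with 0 UMIs in the healthy and 4281 in the CCl4 cells (at least 330-fold higher against 3 UMIs), and 3 were lower: *Ltbp1* (287 to 65.6 CPM, 0.229), *Ltbp4* (790 to 217 CPM, 0.275) and *Tgfb2* (304 to 87.6 CPM, 0.288). The median log2 ratio was 0.44 in endothelial-like and -0.82 in mesothelial-like cells. Of 9 genes that TGF-β is known to raise, 3 were higher and 0 lower in each class (7.11% and 11.3% higher, 15.7% and 12.1% lower over all genes), with medians of 0.44 and 0.30. In endothelial-like cells these were *Ltbp2*, *Tagln* and *Acta2*, of which the last 2 are mesenchymal markers. All 3, *Ltbp2* included, had a far higher CPM in CCl4 mesenchymal-like than in CCl4 endothelial-like cells. The part of mesenchymal RNA in these 3 ratios was not tested. In mesothelial-like cells the higher genes included *Ltbp2* and *Tgfbi* (0.260 to 31.9 CPM, from 1 healthy UMI). *Ltbp2* is on both lists, so it is counted in each.

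Over the 9 profiles of a named class in a library with at least 50 cells, the genes whose log2(CPM + 1) ran closest to each integrin were read as a description. For *Itga8* they were *Plvap* (r = 0.98), *Hgf* (0.97) and *Npr3* (0.97), for *Itga1* *Tmem204*, *Nav1* and *Tbx2* (0.96 each), for *Itgb1* *Tnks* (0.98), *Lgals3bp* (0.98) and *Mmp14* (0.97), and for *Itgb6* *Grhl2*, *Tff2* and *C2cd4b* (0.998, 0.997 and 0.996). For *Itgav* they were *Endod1* (0.96), *Ltbp3* (0.95) and *Tax1bp1* (0.94), for *Itgb3* *Mapre2* (0.93) and *Hip1* (0.92), and for *Itgb5* *Anxa6* (0.89), *Ramp1* (0.88) and *Arvcf* (0.87). The closest to *Itgb8* were *Dixdc1* (0.93), *Zfhx4* (0.91) and *Ext1* (0.91), to *Itga5* *Acer2* (0.98), *Fgd6* (0.94) and *Alox12* (0.94), and to *Itga9* *Myo7a* (0.96), *Cdc42ep4* (0.95) and *Dgkh* (0.95). Profiles of 1 library share depth and free RNA.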

How the data were processed

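The deposited files are 10x count matrices, 1 per sample, which the authors made from single cell 3' libraries with Cell Ranger 3.1.0 for the healthy and 6.0.1 for the CCl4 sample, per the file headers, and which hold raw UMI counts for each gene in each called cell. The genome build of these matrices is not given in the sources used here as 1 build, and the gene lists differ (31053 and 32285 genes). The 30406 shared Ensembl identifiers held 99.9% and 99.6% of the UMIs.

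Cells with at least 500 UMIs, 200 genes and at most 30% mitochondrial UMIs were kept, and the cells with the highest Scrublet scores were removed as doublets (0.8% per 1000 cells, so 4.71% and 6.24%). Both libraries were clustered together with scanpy 1.11.5 (2000 variable genes without integrin, sex-linked, mitochondrial and ribosomal protein genes, 10 principal components, 20 neighbours, resolution 1). A cluster was named for the class with most markers found in at least 10% of its cells and 2-fold over the rest, with at least 3 such markers and leading genes that did not go against the name. The rule for naming clusters was set after seeing the data. Cells, UMI sums and CPM ratios carry exact binomial, Poisson and conditional binomial 95% intervals. A gene needed 10 UMIs over both libraries to be compared, and a zero group was set to 3 UMIs for a bound. The level that mesenchymal RNA would carry is the gene's CPM in CCl4 mesenchymal-like cells times the population's *Col1a1* (or *Lrat*) CPM over theirs.

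All 10 integrin genes are reported. For each, the 3 genes with the closest profile are named, among genes with at least 50 CPM in 1 profile. Some genes that these rules name are not reported here. Named genes of the lists are those with the largest called ratio in each direction and the highest CPM, with a few others chosen after their values were seen. The members and lists were chosen with earlier results of these data known. The ratio and its calls were tested on simulated data. TMM factors came from edgeR (the alternatives are given in the closing section).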

Additional observations from a re-analysis of the deposited data

Results flagged for a closer look

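In 3 genes the CCl4 to healthy ratio lay on opposite sides of 1 in the endothelial-like and mesothelial-like cells, with both intervals off 1. *Itgb3*, the β chain of αvβ3, was higher in endothelial-like cells (ratio 1.74) and lower in mesothelial-like cells (0.179). *Itga8* was lower in endothelial-like cells (0.529) and higher in mesothelial-like cells (14.2, from 2 healthy UMIs). *Itga9* was slightly higher in endothelial-like cells (1.17) and lower in mesothelial-like cells (0.439). The differences between the classes were not tested, as each group is 1 library.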

How the results depend on the processing

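No paired analysis was possible because each group has 1 library, and for the same reason no replicate could be left out. In endothelial-like cells 1 integrin gene was at least 2-fold higher, and this count was 3 with a mitochondrial limit of 10%, 3 with at least 1000 UMIs per cell, 4 with no doublet removal, 2 without the 50 most abundant genes, 2 with TMM factors and 0 with background subtraction. The count of genes at least 2-fold lower there, 0, was 1 with background subtraction and 1 without the large-vessel cluster, an alternative added after seeing the data. In mesothelial-like cells the 2 lower genes were 1 with no mitochondrial limit, 1 with no doublet removal and 1 with the mean of single-cell CPM. The 5 genes highest in healthy endothelial-like cells were 3 with each library clustered on its own, and the 4 highest in CCl4 mesenchymal-like cells were 2 with no doublet removal. *Itga9* in mesothelial-like cells reversed to 1.05 (mitochondrial limit of 10%), 1.72 (no doublet removal), 1.01 (30 principal components) and 1.04 (each library clustered on its own). The causes were not tested. The endothelial *Itgb5* ratio was 4.43 to 145 over 15 alternatives and the mesothelial *Itga8* ratio 2.51 to 27.6 over 12. Background subtraction left no *Itgb5* in endothelial-like cells of either library. With 1 library per group, differences between animals cannot be told apart from those between conditions, and depth limits *Itgb6* and *Itgb8* outside biliary cells.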
